A study of Mus musculus with 18 samples.

Results

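The genes described here are 50 genes of DNA replication and S phase, picked by symbol from a table of read counts for 24028 mouse genes. All 50 were in the table, and all 50 were among the 13602 genes that passed the filter on low counts. They were measured by sequencing of polyadenylated RNA in C2C12, a line of mouse myoblasts, the dividing precursors of muscle fibres. The 18 libraries fall into 6 groups, and the 3 in a group came from separate cultures. Each of 3 clonal lines carried 1 doxycycline-inducible transgene: codon-altered mouse Dux, codon-altered human DUX4, or firefly luciferase as a control protein. Induced cultures of the mouse Dux, human DUX4 and luciferase lines were harvested after 36 h with doxycycline at 2 µg/ml, and uninduced cultures of the same line at the same time without it. All groups therefore share the integrated doxycycline system, and all were selected with puromycin at 2.6 µg/ml, while the induced groups also share the drug. Each transgene is represented by 1 clone, so clone, line and transgene cannot be told apart in any comparison between lines.

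Dux and its human relative DUX4 are double-homeobox transcription factors of the early embryo, and DUX4 is toxic when it is expressed in muscle. DNA replication is prepared in G1, when the origin recognition complex, Cdc6 and Cdt1 load the ring-shaped Mcm2 to Mcm7 helicase onto DNA, and geminin (Gmnn) blocks further loading once S phase has begun. Cdc45 and the GINS complex then switch the helicase on, DNA polymerases alpha, delta and epsilon copy the strands, the clamp Pcna and its loader keep them in place, and Rrm1, Rrm2, Tk1, Tyms and Dut supply nucleotides. Most of these genes are transcribed in late G1 and S phase under E2F factors, which the retinoblastoma protein Rb1 holds back in resting cells. Their messages are therefore abundant in dividing myoblasts and low in myotubes, the fused muscle cells that have left the cell cycle. In bulk samples, fewer cells in S phase and less message per cell cannot be told apart.

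Values are CPM, counts divided by the library's total and scaled by TMM factors, where TMM is a scaling that sets most genes equal between libraries, and changes are log2 fold changes from edgeR's quasi-likelihood F test. A gene is called higher or lower at an adjusted p under 0.05, with Benjamini-Hochberg adjustment over the 13602 genes. The libraries held 11010586 to 17179642 counts. The libraries numbered 1 of the mouse Dux line stood apart from their replicates: chi-square per degree of freedom between induced library 1 and the other 2 was 33.2 and 35.6, against 2.11 between those 2. For uninduced library 1 it was 5.02 and 5.10, against 1.25, and it was 1.34 to 2.74 within the other groups. Calls of the mouse Dux response that change without these libraries are named with that result. Reads from the codon-altered transgenes were not analysed here.

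The 3 lines did not start from the same level. Summed over the 50 genes, uninduced cultures held 4047, 4030 and 4026 CPM in the human DUX4 line, 2317, 2411 and 2329 CPM in the mouse Dux line, and 999.5, 988.7 and 1007 CPM in the luciferase line. The groups were far apart and none overlapped. With doxycycline, the sum was 2018, 2032 and 2009 CPM in the human DUX4 line, 2702, 2469 and 2507 CPM in the mouse Dux line, and 587.3, 580.9 and 576.9 CPM in the luciferase line. The sum was thus lower with doxycycline in the human DUX4 and luciferase lines, and higher in the mouse Dux line, where library 1 gave the highest value. In the mouse Dux line the mean sum went from 2352 to 2559 CPM, and most of that rise was in Pcna. Pcna alone went from 155.4, 160.4 and 153.4 CPM to 426.8, 311.5 and 326.4 CPM there. Scaled by library size alone, the mouse Dux sum was instead lower with doxycycline, at 2303 ± 104 CPM against 2509 ± 47.7 CPM (SD, n = 3). The lowest group sum, in induced luciferase cultures, was reached from the lowest start, and the induced human DUX4 sum stayed above that of uninduced luciferase cultures.

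**Figure D1:**
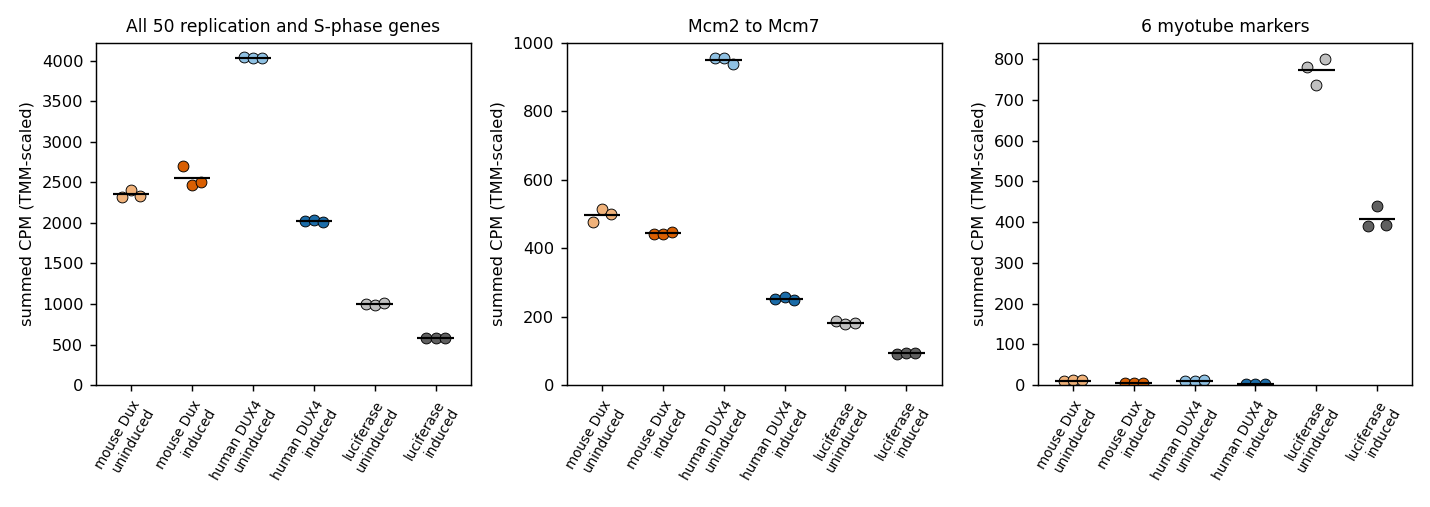
Summed CPM (TMM-scaled, linear axis from 0) of all 50 genes, of the helicase genes Mcm2 to Mcm7 and of 6 myotube markers in each of the 18 libraries; points are libraries and bars are group means. The 50-gene sum was highest in uninduced human DUX4 cultures, at 4026 to 4047 CPM, and lowest in induced luciferase cultures, at 576.9 to 587.3 CPM, and the myotube markers reached 736.8 to 800 CPM in uninduced luciferase cultures and at most 12.7 CPM in the other 2 lines.

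Before induction, all 50 genes were higher in the human DUX4 line than in the luciferase line, by 1.01 to 3.68 on the log2 scale, with a median of 2.13, or 4.37-fold. Over all genes tested, 36.0% were called higher and 37.0% lower in that comparison, with a median of -0.01. Thymidine kinase 1 (Tk1, chr11:117815526-117826092), which salvages thymidine for DNA synthesis, showed the largest difference. Its level was 177, 175 and 184 CPM in uninduced human DUX4 cultures and 14.8, 13.5 and 13.5 CPM in uninduced luciferase cultures. The log2 difference was 3.68 ± 0.0845 (SE, adjusted p = 5.53e-18). The next were the helicase loader Cdc6, with 3.47 ± 0.141, and the helicase subunit Mcm5, with 3.38 ± 0.07. Pold3, an accessory subunit of DNA polymerase delta, had the smallest difference, at 1.01.

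The mouse Dux line lay between the other 2. Of the 50 genes, 48 were higher in it than in the luciferase line before induction, with a median log2 difference of 1.21, against 32.2% called higher and 33.1% lower over all genes tested. The 2 that did not pass were Slbp, at 0.07, and Rpa2, at 0.17. Slbp encodes the protein that binds the stem-loop of histone messages, and Rpa2 a subunit of the single-strand binding complex RPA. DESeq2 gave 47 genes higher, without Rfc2 (adjusted p = 0.0562), and leaving out libraries gave 46 to 49. The call of E2f1 was lost without uninduced luciferase library 2 or 3 or uninduced mouse Dux library 1 or 2 (adjusted p = 0.067 to 0.118). Against the human DUX4 line, 49 of 50 were lower, with a median of -0.96, while 33.3% of all genes tested were called lower and 33.1% higher. The exception was Orc6 (chr8:85299632-85308278), a subunit of the origin recognition complex. Orc6 stood at 90.8, 89.1 and 85.3 CPM in the uninduced mouse Dux line, at 76.5, 75.8 and 73.3 CPM in the human DUX4 line, and at 17.5, 16.9 and 17.6 CPM in the luciferase line. Its difference between the first 2 was 0.23 ± 0.081 (SE, adjusted p = 0.0168, edgeR), and this call was lost without uninduced human DUX4 library 3 (adjusted p = 0.0572) or uninduced mouse Dux library 1 (adjusted p = 0.0536). The largest gap between these 2 lines was in Cdc6 (-1.86 ± 0.118), followed by Orc1 (-1.70 ± 0.141) and Tk1 (-1.39 ± 0.072). Among the 49, the call of Pola2 was lost with library size alone (adjusted p = 0.138). It was also lost without uninduced human DUX4 library 2 or 3 or uninduced mouse Dux library 1 (adjusted p = 0.0871 to 0.109).

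Per kilobase of exon, the scale on which genes can be set against each other, Pcna and Rrm2 were the 2 highest of the 50 in every group but 1. Pcna stood at 141 and Rrm2 at 131 CPM per kb in uninduced human DUX4 cultures, and at 31.8 and 29.5 CPM per kb in uninduced luciferase cultures. Rrm2 encodes the small, S-phase subunit of ribonucleotide reductase, which makes deoxyribonucleotides. In induced luciferase cultures Rpa1, the large subunit of RPA, ranked above Rrm2, at 11.5 against 8.96 CPM per kb. Exo1, a nuclease of mismatch repair and end resection, was among the lowest, at 2.60 CPM per kb in uninduced human DUX4 cultures and 0.317 CPM per kb in uninduced luciferase cultures.

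Induction of human DUX4 lowered 49 of the 50 genes and raised 1, Pcna. The median log2 fold change was -1.59, which is 3.01-fold lower, and 38 genes fell by at least 1 on the log2 scale. Over all genes tested, 33.1% were called lower, 34.4% higher and 10.7% lower by at least 1, with a median of 0.00. For none of the 50 did the induced and uninduced libraries overlap. The share of all genes tested without such overlap was not counted, so this does not set the 50 apart. In each of the 8 role groups every gene fell, with the exception of Pcna among the clamp genes. No call among the 50 changed under any alternative tried.

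Among the 11 licensing genes, which load the helicase, all were lower, with a median of -1.91. Cdc6 (chr11:98907801-98923940) went from 31.0, 31.3 and 31.4 CPM to 3.06, 4.29 and 3.41 CPM, a change of -3.11 ± 0.137 (SE, adjusted p = 1.18e-13, edgeR). Mcm5 (chr8:75109569-75128439) went from 168, 165 and 170 CPM to 25.7, 27.9 and 22.9 CPM, a change of -2.72 ± 0.0667 (adjusted p = 2.6e-17). These 2 lost most of their message, and the induced libraries lay close together. The 6 helicase subunits Mcm2 to Mcm7 did not fall evenly, from -1.39 for Mcm4 to -2.72 for Mcm5, although their proteins act as a ring of 1 copy each. Mcm3 fell by 2.49, Mcm2 by 1.99, Mcm7 by 1.91 and Mcm6 by 1.47. Their sum dropped from 949.5 ± 11.3 to 253 ± 4.97 CPM (SD, n = 3). Of the origin recognition complex, Orc1 fell by 2.08 and Orc6 by 0.98. Of the pair that times loading, the loader Cdt1 fell by 1.30 and its inhibitor Gmnn by 1.66.

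The 4 genes that activate the loaded helicase were all more than halved, with a median of -2.20. Gins1 (chr2:150905400-150931280), a GINS subunit, went from 11.1, 12.6 and 12.8 CPM to 1.81, 1.85 and 1.67 CPM, a change of -2.77 ± 0.198 (SE, adjusted p = 2.17e-10, edgeR). Mcm10, which helps to open the double helicase, fell by 2.29, Gins2 by 2.10 and Cdc45 by 1.71. Cdc45 (chr16:18780447-18811987), the least changed of these 4, still went from 27.6, 29.0 and 26.1 CPM to 7.30, 8.51 and 9.37 CPM.

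The 8 polymerase and primase genes covered a wide range. Pole (chr5:110286306-110337474), the catalytic subunit of the leading-strand polymerase epsilon, fell from 63.2, 63.0 and 64.5 CPM to 15.3, 18.6 and 16.9 CPM, a change of -1.91 ± 0.136 (SE, adjusted p = 1.95e-10, edgeR). Prim2 (chr1:33453810-33669795), the large primase subunit, went only from 43.2, 42.2 and 36.5 CPM to 36.2, 32.3 and 33.5 CPM, a change of -0.26 ± 0.0735 (adjusted p = 0.00412). Its partner Prim1, the catalytic primase subunit, fell by 1.75. Subunits of 1 enzyme thus moved by different amounts. The same held for polymerase delta, where the catalytic Pold1 fell by 1.59 and the accessory Pold3 by 0.27, and for polymerase alpha, with -1.56 for Pola1 and -0.98 for Pola2.

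The group of the sliding clamp, its loader, RPA and the lagging-strand enzymes held the 1 gene that rose. Pcna (chr2:132249162-132253314) went from 340, 336 and 340 CPM to 622, 596 and 604 CPM, a change of 0.84 ± 0.0783 (SE, adjusted p = 1.08e-08, edgeR), and its induced libraries were the highest of all 18. The annotation holds Pcna-ps1 and Pcna-ps2, 2 pseudogenes named for Pcna, and the labels do not say how reads shared with them were counted. Of the loader that opens and closes the clamp, the 4 small subunits, which are the loader genes among the 50, fell: Rfc4 by 1.59, Rfc5 by 1.32, Rfc3 by 1.10 and Rfc2 by 0.75. The large subunit Rfc1, from the list of further replication genes, was not called, at 106.2, 113.9 and 81.2 CPM without and 93.7, 102.3 and 100.3 CPM with doxycycline (-0.03, adjusted p = 0.852). Falls were also measured for the lagging-strand nuclease Fen1, by 1.65, and the ligase Lig1, by 1.27. Rpa2 (chr4:132768332-132778752) fell from 44.8, 44.4 and 46.1 CPM to 13.8, 13.1 and 14.8 CPM, the largest change of this group at -1.70 ± 0.0937 (adjusted p = 4.1e-12). Rpa1 fell by 0.96.

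In nucleotide supply, Rrm2 (chr12:24708241-24714146) fell from 361, 354 and 373 CPM to 98.8, 104 and 101 CPM, a change of -1.84 ± 0.0621 (SE, adjusted p = 2.25e-15, edgeR). Tk1 fell by 1.80 and Dut, which removes dUTP, by 1.60. The large ribonucleotide reductase subunit Rrm1 fell by 0.68. Thymidylate synthase, Tyms (chr5:30058202-30073617), changed least, from 70.7, 72.2 and 71.9 CPM to 61.9, 61.3 and 54.4 CPM (-0.27 ± 0.0613, adjusted p = 0.00058). Tyms too has a named pseudogene, Tyms-ps.

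Among the genes that control entry into S phase, the cyclin E genes Ccne2 and Ccne1, partners of Cdk2 at the G1/S border, fell by 1.54 and 1.21. E2f1 (chr2:154559407-154569892), the factor that drives much of the S-phase programme, went from 46.5, 48.9 and 44.8 CPM to 41.7, 39.9 and 35.9 CPM. That change of -0.26 ± 0.0747 (SE, adjusted p = 0.00516, edgeR) was, with those of Prim2, Pold3 and Tyms, among the 4 smallest falls of the 49. Slbp fell by 0.66.

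The chromatin pair Cdca7 and Hells, which form a nucleosome-remodelling complex needed to keep DNA methylated, fell most as a group, with a median of -2.84. Cdca7 (chr2:72476159-72486893) went from 23.5, 23.8 and 26.3 CPM to 2.30, 2.31 and 2.14 CPM, the largest change of the 50 genes at -3.44 ± 0.125 (SE, adjusted p = 6.67e-15, edgeR), or 10.9-fold lower. Hells (chr19:38930915-38971051) went from 72.3, 72.2 and 70.5 CPM to 15.8, 15.4 and 14.6 CPM (-2.23 ± 0.0737). The 7 checkpoint and repair genes fell by 0.99 (Brca2, homologous recombination) to 2.43 (Exo1). Exo1 (chr1:175880581-175913489) went from 21.8, 22.8 and 21.1 CPM to 3.13, 3.89 and 5.09 CPM. The replication checkpoint genes Clspn, Chek1 and Tipin fell by 1.94, 1.88 and 1.38.

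The promoters of the 3 genes that fell most among those with a window, and of the 1 that rose, are shown for the presence of the E2F motif. Windows for 40 of the 50 genes, 44 windows in all, came from RefSeq on GRCm38.p6. Gins1, which fell more than Mcm5, has no window. They run from 250 bases before the start to 50 after it. Capitals mark a match on either strand to TTTCCCGC, TTTGGCGC, TTTCGCGC or TTTGCCGC; in Mcm5 a TTTCGCGC and the reverse complement of TTTGGCGC overlap. Each line gives 250 bases before the start and 30 after it, on the gene's strand, for Cdca7 at chr2:72475969-72476248 (plus), Cdc6 at chr11:98907901-98908180 (plus), Mcm5 at chr8:75109259-75109538 (plus) and Pcna at chr2:132253151-132253430 (minus).
Cdca7: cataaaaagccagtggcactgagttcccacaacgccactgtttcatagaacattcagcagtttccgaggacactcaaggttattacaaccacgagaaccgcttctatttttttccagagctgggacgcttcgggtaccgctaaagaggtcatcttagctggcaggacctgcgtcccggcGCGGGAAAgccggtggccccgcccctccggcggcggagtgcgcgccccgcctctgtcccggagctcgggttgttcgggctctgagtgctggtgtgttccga
Cdc6: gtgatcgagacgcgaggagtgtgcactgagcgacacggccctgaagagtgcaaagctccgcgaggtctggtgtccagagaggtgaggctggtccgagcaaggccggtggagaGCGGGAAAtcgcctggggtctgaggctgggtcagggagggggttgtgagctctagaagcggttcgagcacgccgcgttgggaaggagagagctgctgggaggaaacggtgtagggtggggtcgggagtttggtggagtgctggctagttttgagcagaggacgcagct
Mcm5: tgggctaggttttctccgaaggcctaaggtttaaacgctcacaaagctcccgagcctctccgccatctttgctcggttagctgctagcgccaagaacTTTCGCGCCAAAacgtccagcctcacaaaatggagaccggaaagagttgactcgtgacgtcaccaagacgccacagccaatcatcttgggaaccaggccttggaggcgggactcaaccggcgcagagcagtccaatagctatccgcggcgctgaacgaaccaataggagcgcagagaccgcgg
Pcna: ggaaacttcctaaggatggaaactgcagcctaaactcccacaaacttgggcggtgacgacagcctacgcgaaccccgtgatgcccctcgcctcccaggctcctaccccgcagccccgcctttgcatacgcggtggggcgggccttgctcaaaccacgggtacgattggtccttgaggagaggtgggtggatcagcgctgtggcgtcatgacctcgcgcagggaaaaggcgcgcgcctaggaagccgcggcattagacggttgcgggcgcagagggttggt
The match began 71 bases before the start in Cdca7 and 138 before it in Cdc6, and the 2 in Mcm5 began 153 and 149 before it. Over the 44 windows, 17 (38.6%) held such a match, against 744 of 32851 windows of all genes (2.26%). The median human DUX4 change was -1.59 in the 17 genes with a match and -1.59 in the 23 without one. CCAAT, the box bound by NF-Y, was in 50% of the members' windows and 37.4% of all windows. The cell-cycle homology region letters TTTGAA or TTCGAA were in 11.4% against 19.2%. The members' windows were also richer in G and C, with a median of 58.67% against 52.67%, and base composition alone changes how often such letters occur. In 9 of the 44 windows the RefSeq start lay more than 200 bases inside the gene's outermost GENCODE start, by 350 bases in Cdc6 and by 466 in E2f1. These windows may not hold the promoter in use. That limit holds for the Cdc6 window printed above and for its match. The E2f1 window, which held no match, was selected by the same rule but left out, so the limit was not applied evenly.

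**Figure D2:**
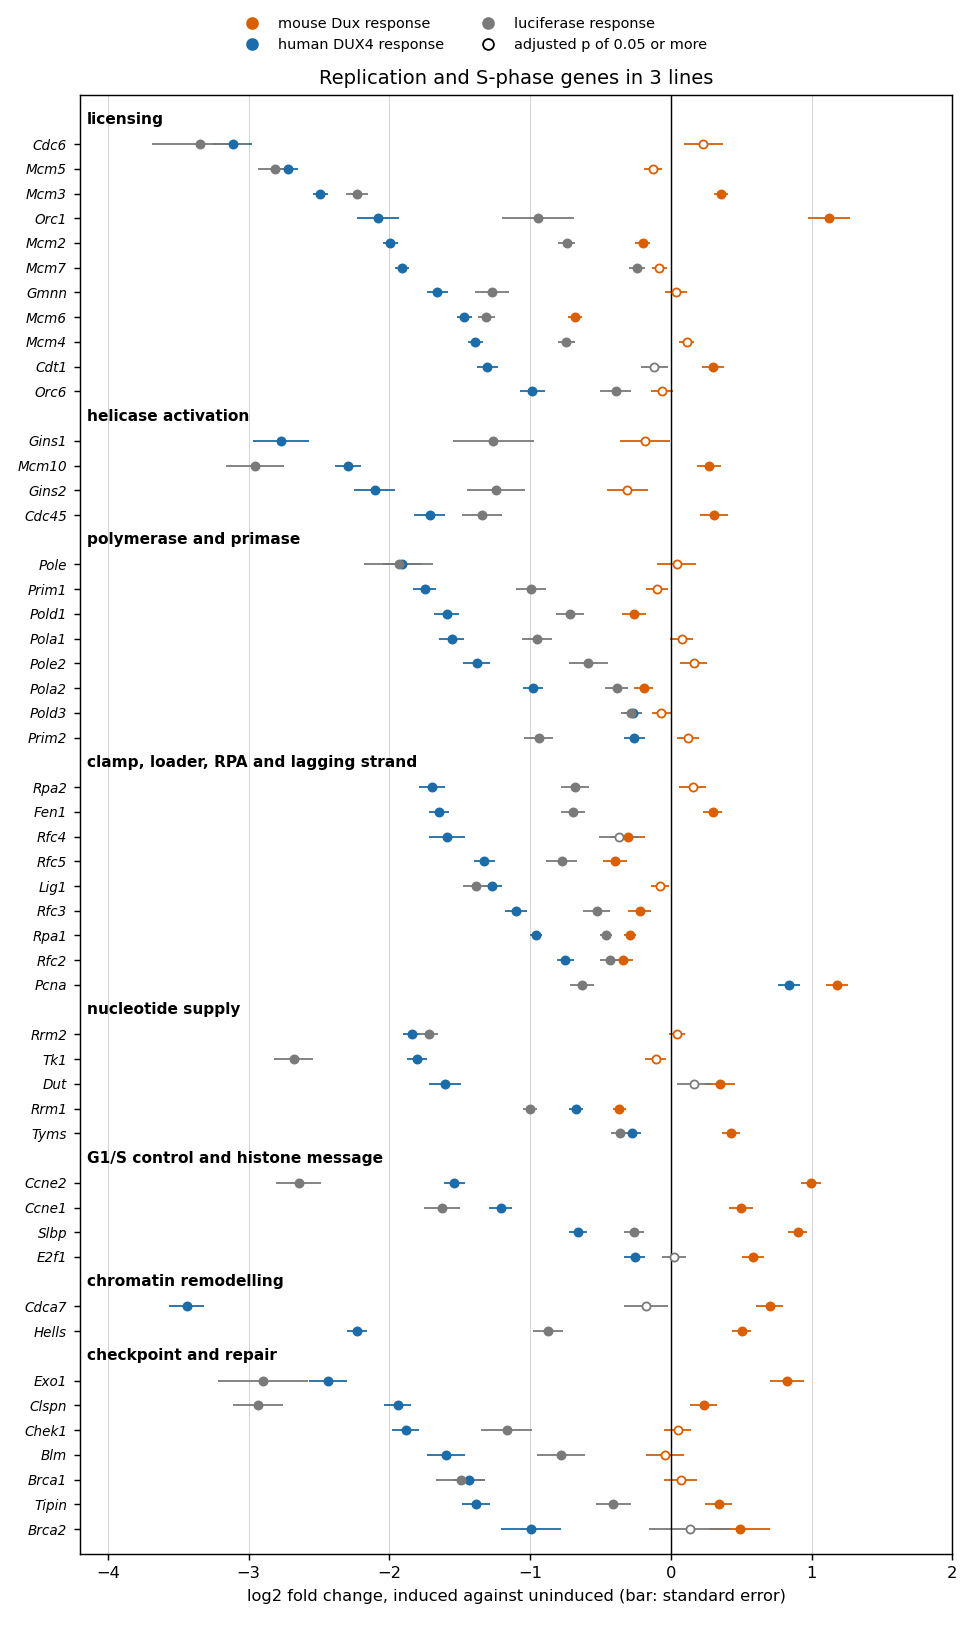
Log2 fold change of each of the 50 genes, induced against uninduced (horizontal axis), in the mouse Dux, human DUX4 and luciferase lines, grouped by role; bars are standard errors, filled points have an adjusted p under 0.05 and open points do not. Human DUX4 points lie to the left of 0 for 49 genes, with Pcna at 0.84, luciferase points lie between -3.34 and 0.17, and mouse Dux points lie between -0.68 and 1.18.

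Doxycycline also lowered most of these genes in the luciferase line, which expresses neither factor. Of the 50, 44 were called lower and none higher by edgeR, with a median of -0.83, and 20 fell by at least 1. The count of genes higher was 0 at an unadjusted p under 0.05 and 0 by DESeq2 as well. Over all genes tested, 16.4% were called lower, 14.7% higher and 2.79% lower by at least 1. Cdc6 fell most, from 2.48, 3.05 and 2.90 CPM to 0.249, 0.258 and 0.298 CPM (-3.34 ± 0.347, SE, adjusted p = 3.36e-07). The induced value rests on 13 counts summed over the 3 libraries.

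The genes that fell most here were spread over several roles. Mcm10 (chr2:4989714-5012791) went from 4.04, 4.63 and 4.0 CPM to 0.497, 0.581 and 0.537 CPM, a change of -2.96 ± 0.204 (SE, adjusted p = 1.15e-09, edgeR). Clspn (chr4:126556935-126593903), the adaptor that relays the replication checkpoint to Chek1, went from 13.2, 12.9 and 11.5 CPM to 1.37, 1.23 and 2.27 CPM (-2.94 ± 0.176, adjusted p = 1.4e-10). Exo1 fell by 2.90, Mcm5 by 2.82, Tk1 by 2.68, Ccne2 by 2.64 and Mcm3 by 2.23. In all of these the induced libraries lay well below the uninduced ones, with no overlap. Mcm2 to Mcm7 again fell unevenly, from -0.24 for Mcm7 to -2.82 for Mcm5. The 8 polymerase and primase genes were all lower, with a median of -0.83, and 1 of them, Pole, fell by at least 1 (-1.93).

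The 6 genes that did not pass in the luciferase line were Cdt1 (-0.12), Rfc4 (-0.37), Dut (0.17), E2f1 (0.02), Cdca7 (-0.17) and Brca2 (0.13). Dut (chr2:125247190-125258608) stood at 18.5, 17.9 and 17.9 CPM without doxycycline and at 25.8, 16.5 and 18.7 CPM with it, so its induced libraries spread around the uninduced ones. E2f1 stood at 22.6, 21.5 and 20.2 CPM without and 22.7, 20.3 and 22.4 CPM with doxycycline. Cdca7, the gene with the largest fall in the human DUX4 line, stood at 3.29, 3.72 and 3.66 CPM without and 3.36, 2.90 and 3.16 CPM with it. Of the calls that did pass, those of Pold3, Slbp and Tipin were lost when 1 luciferase library was left out; Tipin was at adjusted p = 0.102 without induced library 3.

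Mouse Dux gave a mixed picture. Of the 50 genes, 19 were called higher, 10 lower and 21 neither, with a median of 0.07, and none fell by as much as 1. Over all genes tested, 34.1% were called higher, 34.8% lower and 7.98% lower by at least 1, so the share higher among the 50, 38.0%, was close to that background and the share lower, 20.0%, was under it. Without both mouse Dux libraries numbered 1, 19 were higher and 14 lower. These counts depend on the scaling: by library size alone the change of all genes shifts by -0.24, 11 of the 50 are higher and 22 lower, and 3199 of all genes tested are higher and 6922 lower, against 4643 and 4728 with TMM. In all 3 scalings the genes called higher were Orc1, Mcm3, Pcna, Tyms, E2f1, Ccne1, Ccne2, Slbp, Hells, Cdca7 and Exo1, and all 10 called lower stayed lower.

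The 4 genes of S-phase entry and histone message rose together, and did so in each of the 3 scalings. Ccne2 (chr4:11191351-11204779) went from 9.85, 10.5 and 10.2 CPM to 19.5, 20.8 and 20.9 CPM, a change of 1.00 ± 0.0715 (SE, adjusted p = 2.69e-10, edgeR). Slbp rose by 0.90, E2f1 by 0.58 and Ccne1 by 0.50. E2f1 went from 25.7, 24.9 and 24.1 CPM to 42.3, 35.3 and 34.1 CPM, with library 1 the highest. Ccne2 shares 17.4% of its exonic bases with the exons of Ints8.

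Of the replication machinery itself, Pcna and Orc1 rose most. Pcna went from 155, 160 and 153 CPM to 427, 312 and 326 CPM (1.18 ± 0.08, SE, adjusted p = 1.15e-10, edgeR); library 1 gave the highest induced value, and all 3 lay above the uninduced ones. Orc1 (chr4:108579423-108614833), the largest subunit of the origin recognition complex, went from 5.01, 4.82 and 3.25 CPM to 9.80, 9.61 and 8.94 CPM (1.13 ± 0.15, adjusted p = 1.75e-06). Exo1 rose by 0.82, and the chromatin pair Cdca7 and Hells by 0.70 and 0.50. Cdca7 went from 12.6, 11.6 and 10.3 CPM to 21.5, 16.7 and 17.4 CPM.

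The genes that fell with mouse Dux were mostly of the clamp loader, the helicase and ribonucleotide reductase. Mcm6 (chr1:128331590-128359664) fell most, from 140, 153 and 159 CPM to 87.9, 95.9 and 98.4 CPM (-0.68 ± 0.0524, SE, adjusted p = 7.85e-10, edgeR). Rfc5 (chr5:117378103-117389047) went from 22.4, 20.4 and 21.9 CPM to 17.4, 14.9 and 16.7 CPM (-0.40 ± 0.0828, adjusted p = 0.000307), and Rfc2, Rfc4 and Rfc3 fell by 0.34, 0.31 and 0.22. Rrm1 (chr7:102441695-102469771) went from 197, 218 and 206 CPM to 155, 158 and 169 CPM (-0.37 ± 0.0485, adjusted p = 1.72e-06). The other 4 were Rpa1 (-0.29), Pold1 (-0.26), Mcm2 (-0.20) and Pola2 (-0.19). Pcna was thus higher and the 4 small loader subunits lower, but the large subunit Rfc1 was not called (0.00, adjusted p = 0.98). The calls of Rfc3 and Rfc4 were lost without induced library 2, induced library 3 or uninduced library 1, with adjusted p-values of 0.0787 to 0.219, and with only the groups compared (0.116 and 0.123). The call of Pola2 was lost without induced library 2 or uninduced library 2 (adjusted p = 0.0743 and 0.0788). With only the groups compared, Pola2, Pold1 and Mcm2 were not called either (adjusted p = 0.0696, 0.0556 and 0.0651).

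Within the helicase ring, Mcm3 was higher (0.36), Mcm6 and Mcm2 were lower, and Mcm4 (0.11), Mcm5 (-0.13) and Mcm7 (-0.08) did not pass. Of the 8 polymerase and primase genes, 2 were lower and 0 higher by edgeR, and 0 were higher at an unadjusted p under 0.05 or by DESeq2. That count of 0 rests on induced library 1: without it Pola1 (0.17, adjusted p = 0.0151) and Pole (0.22, adjusted p = 0.0209) were higher, and Pola1 also without both libraries numbered 1 (0.14, adjusted p = 0.0488). Libraries numbered 1 decided other small calls in both directions. Without the induced one, Mcm5 (-0.20), Orc6 (-0.22), Tk1 (-0.26) and Gins2 (-0.45) were lower as well, with adjusted p-values of 0.00139, 0.000317, 3.56e-05 and 0.00441, and these 4 were lower also without both. Without the induced one, Brca1 (0.20, adjusted p = 0.0352) and Mcm4 (0.11, adjusted p = 0.0498) were higher. The higher call of Mcm10 was lost without both (0.22, adjusted p = 0.0528). That of Cdc45 was lost without uninduced library 3 (0.26, adjusted p = 0.0607). The induced and uninduced libraries of Brca2, Clspn, Rfc3 and Rfc4 overlapped although they were called. Brca2 (chr5:150522630-150570329) stood at 13.6, 21.3 and 19.2 CPM without and 13.9, 30.4 and 33.5 CPM with doxycycline, with both libraries numbered 1 lowest. Its call (0.49, adjusted p = 0.0473) was lost without any of induced libraries 2 or 3 and uninduced libraries 1 or 3, where the adjusted p was 0.0716 to 0.331. The call of Clspn was lost without induced library 2, induced library 3 or uninduced library 1, with adjusted p-values of 0.113 to 0.205, and with only the groups compared (0.0983).

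**Figure D3:**
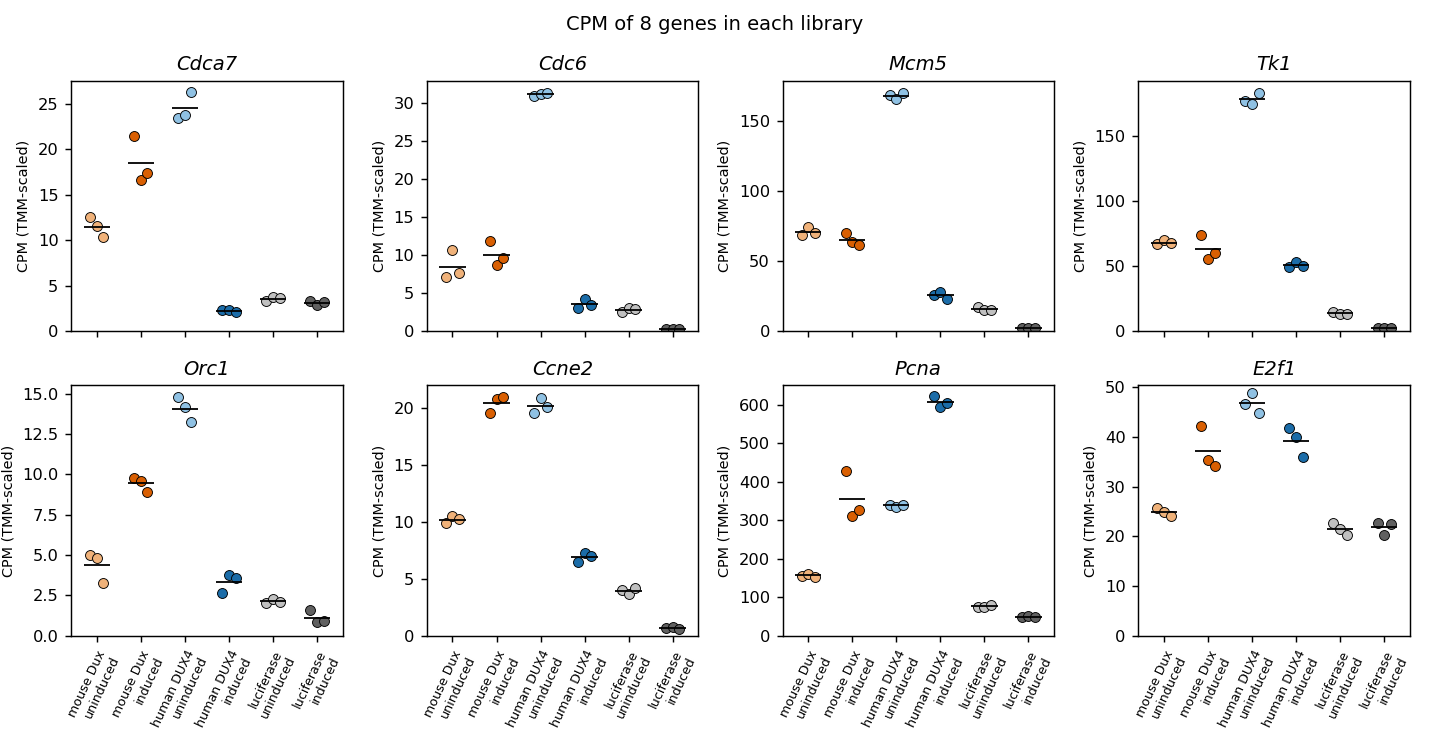
CPM (TMM-scaled, linear axes from 0) of Cdca7, Cdc6, Mcm5, Tk1, Orc1, Ccne2, Pcna and E2f1 in each library of the 6 groups; points are libraries and bars are means of 3. Cdca7 is lowest in induced human DUX4 cultures, at 2.14 to 2.31 CPM, Cdc6, Mcm5 and Tk1 fall in the human DUX4 and luciferase pairs, and Pcna rises in the mouse Dux and human DUX4 pairs.

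The responses of the 3 lines were then tested against each other as interaction terms in the same edgeR model. The responses of mouse Dux and human DUX4 have no library in common, and all 3 responses are set against their own line's uninduced cultures. The mouse Dux response was higher than the human DUX4 response in 49 of 50 genes and lower in 0, also at an unadjusted p under 0.05 and by DESeq2, with a median difference of 1.67, against 32.9% of all genes called higher and 32.3% lower. Pold3 was the exception (0.20, adjusted p = 0.0733), and it passed without both mouse Dux libraries numbered 1 (0.31, adjusted p = 0.0054). Of the 50 genes, 18 rose with mouse Dux and fell with human DUX4, 10 fell with both, 1, Pcna, rose with both, and 21 fell with human DUX4 and were not called with mouse Dux. Since 49 of the 50 fell with human DUX4, this split mostly restates the mouse Dux calls. It was not counted over all genes tested. Among the 18 are Mcm10, Clspn, Brca2 and Cdc45, whose mouse Dux calls depended on single libraries or on those numbered 1. By library size alone these genes and Cdt1, Fen1, Dut and Tipin were not called higher with mouse Dux. The largest differences were in Cdca7 (4.14 ± 0.162), Cdc6 (3.35 ± 0.198), Exo1 (3.26 ± 0.182) and Orc1 (3.21 ± 0.211). Without both mouse Dux libraries numbered 1 all 50 passed. With library size alone the background was 3538 genes higher and 5582 lower, against 4471 and 4397 with TMM. Among the 49, library size alone took the call from 4, namely Prim2, Pcna, Rfc2 and Rrm1.

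Against the luciferase response, the mouse Dux response was higher in 43 of 50 genes and lower in 0, also at an unadjusted p under 0.05 and by DESeq2, with a median of 0.91, against 30.4% of all genes called higher and 29.5% lower. The largest differences were in Exo1 (3.72 ± 0.339), Ccne2 (3.64 ± 0.173) and Cdc6 (3.57 ± 0.378). Pcna, higher with mouse Dux and lower with luciferase, differed by 1.82 ± 0.117. The 7 that did not pass were Mcm7, Pola2, Pold3, Rfc2, Rfc4, Dut and Brca2, at 0.06 to 0.36. Leaving out libraries gave 40 to 44 genes higher. The calls of Orc6, Rfc3 and Rfc5 were each lost without any of several single libraries. That of Gins1 was lost without induced luciferase library 1 (adjusted p = 0.0509). Without both mouse Dux libraries numbered 1, Pold3 and Brca2 passed and Orc6 and Rfc3 did not. With library size alone the background was 2832 genes higher and 5972 lower, against 4139 and 4017 with TMM. Among the 43, library size alone took the call from 6, namely Orc6, Cdt1, Pold1, Rfc3, Rfc5 and Blm. It also turned Rpa1 to -0.09, which was not called.

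The human DUX4 and luciferase responses differed in both directions. The human DUX4 response was lower in 30 of 50 genes and higher in 8, with a median of -0.52, against 26.7% of all genes called lower and 28.3% higher. DESeq2 gave 28 lower and 7 higher, and leaving out 1 library at a time gave 27 to 30 lower and 6 to 8 higher. Of the 30, E2f1 and Gmnn lost their calls in several alternatives, among them DESeq2 (adjusted p = 0.096 and 0.107). The call of Orc1 was lost without induced luciferase library 1 (adjusted p = 0.0572), and that of Gins2 without induced luciferase library 3 (adjusted p = 0.0517). The largest extra fall was in Cdca7, at -3.27 ± 0.211 (SE, adjusted p = 1.24e-10, edgeR), followed by Dut (-1.77 ± 0.164), Mcm7 (-1.67), Gins1 (-1.51 ± 0.383) and Hells (-1.36 ± 0.135). The Gins1 difference rests partly on 1 library: the induced luciferase libraries stood at 0.560, 0.774 and 1.73 CPM, and without induced luciferase library 3 the difference was -0.88 (adjusted p = 0.068). The 8 genes with a higher response, that is a smaller fall or a rise, were Pcna (1.48 ± 0.116), Ccne2 (1.10 ± 0.191), Clspn (0.99 ± 0.22), Tk1 (0.87 ± 0.168), Prim2 (0.68 ± 0.126), Mcm10 (0.66 ± 0.253), Ccne1 (0.42) and Rrm1 (0.33 ± 0.0703). Of these 8, Mcm10 and Ccne1 lost their calls in several alternatives, Mcm10 among them in DESeq2 (adjusted p = 0.0578). In 12 genes the difference did not pass, among them Mcm5 (0.10 ± 0.14), Pole (0.02 ± 0.26), Cdc6 (0.23 ± 0.41) and Rrm2 (-0.12 ± 0.0913).

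**Figure D4:**
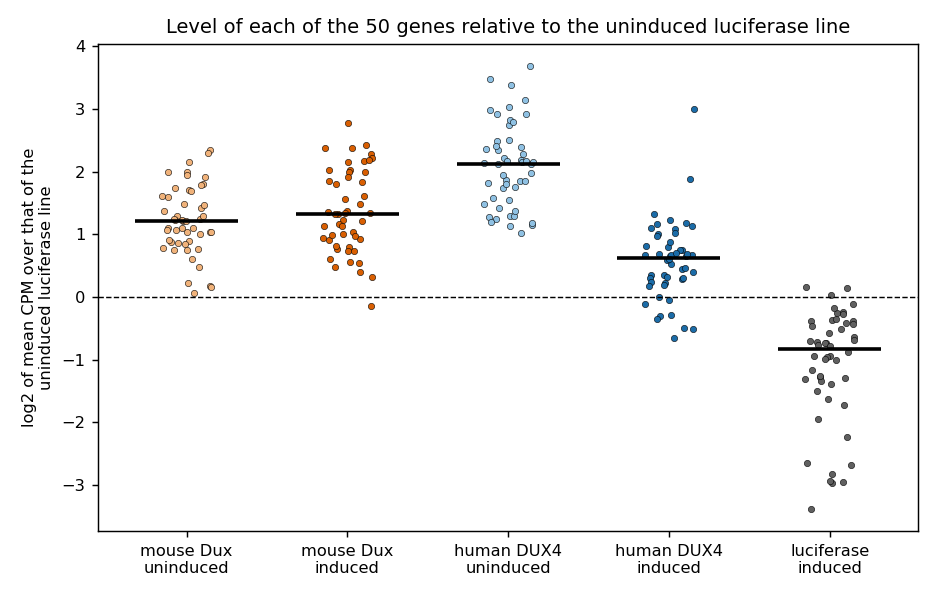
Log2 of each gene's mean CPM over its mean in uninduced luciferase cultures (vertical axis), for the other 5 groups; points are the 50 genes and bars their medians. The medians are 1.21 and 1.33 for uninduced and induced mouse Dux, 2.13 and 0.62 for uninduced and induced human DUX4, and -0.83 for induced luciferase.

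Because the lines started apart, the order of the end levels differed from the order of the falls. Set against uninduced luciferase cultures, the median gene was 4.37-fold in uninduced and 1.54-fold in induced human DUX4 cultures, and 42 of 50 genes were still above the luciferase level after induction. It was 2.31-fold in uninduced and 2.51-fold in induced mouse Dux cultures, and 0.564-fold in induced luciferase cultures. Highest of the 6 groups was uninduced human DUX4 for 47 genes; the others were Orc6 (uninduced mouse Dux), Ccne2 (induced mouse Dux) and Pcna (induced human DUX4). These levels and the responses above share the uninduced libraries, so they are given side by side and were not correlated.

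Of 38 further replication genes, 29 were lower and 4 higher with human DUX4 (median -1.25), 17 higher and 8 lower with mouse Dux (median 0.14), and 25 lower with luciferase (median -0.49). As shares of the list, 76.3% were lower and 10.5% higher with human DUX4, against 33.1% and 34.4% of all genes, and 44.7% were higher and 21.1% lower with mouse Dux, against 34.1% and 34.8%. With luciferase 65.8% were lower, against 16.4%. Dctd, which makes dUMP, fell from 6.13, 6.80 and 9.28 CPM to 0.765, 1.32 and 1.07 CPM with human DUX4 (-2.78 ± 0.217). The helicase-nuclease Dna2 fell by 2.52 and Uhrf1, which guides methylation of new DNA, by 2.36. Of the 4 that rose, the largest changes were in Mcm9 (0.44), Orc5 (0.43) and Top1 (0.37), a helicase of recombination, an origin recognition subunit and a topoisomerase. Uhrf1 was also lower with luciferase (-2.20) and higher with mouse Dux (0.93).

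Of 29 regulators of the G1/S border, 27 were tested. With human DUX4, 19 were lower and 6 higher; with mouse Dux, 11 lower and 7 higher; with luciferase, 13 lower and 1 higher. The shares were 70.4% lower and 22.2% higher with human DUX4, against 33.1% and 34.4% of all genes, 40.7% and 25.9% with mouse Dux, near the 34.8% and 34.1% of all genes, and 48.1% and 3.70% with luciferase, against 16.4% and 14.7%. Cdkn1a, the p21 inhibitor of cyclin-dependent kinases, went from 134, 128 and 132 CPM to 880, 823 and 839 CPM with human DUX4 (2.69 ± 0.0503, SE, adjusted p = 7.38e-19, edgeR). With mouse Dux it went the other way, from 254, 248 and 244 CPM to 92.4, 92.1 and 84.1 CPM (-1.47 ± 0.0496), and with luciferase it stood at 474, 464 and 484 CPM before and 513, 474 and 479 CPM after. The luciferase line thus held the highest uninduced Cdkn1a of the 3 lines and the lowest replication genes.

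Rb1 went from 93.0, 87.6 and 79.6 CPM to 466, 473 and 477 CPM with human DUX4 (2.44 ± 0.077), rose by 0.44 with mouse Dux and was at -0.16 with luciferase, which did not pass. The growth factor-induced Myc fell by 2.21 with human DUX4, rose by 1.01 with mouse Dux and stood at 0.01 with luciferase. The D-type cyclins, which start the inactivation of Rb1, split with human DUX4, with Ccnd1 lower by 0.84 on the log2 scale and Ccnd2 higher by 2.52. The E2F family members E2f2, an activator, and E2f7, a repressor, fell with human DUX4 by 3.30 and 2.83, against 0.26 for E2f1. The fall of Cdkn1c, the kinase inhibitor p57, rests on 3 counts in the induced human DUX4 cultures against 22 in the uninduced ones, and no fold is given.

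Muscle markers moved alongside these genes and differed between the lines. The 6 myotube markers Myog, Myh3, Ckm, Acta1, Tnnc2 and Mymk summed to 736.8 to 800 CPM in uninduced and 391.6 to 438.5 CPM in induced luciferase cultures, with all 6 lower after doxycycline (median -0.90). In the other 2 lines the sum was 9.85 to 12.7 CPM without and 2.37 to 5.33 CPM with doxycycline. The line with the lowest replication genes was therefore the 1 with myotube markers, and both fell together with doxycycline. Myod1, the master factor of muscle fate, stood at 199, 196 and 192 CPM in uninduced luciferase, 130, 119 and 120 CPM in uninduced mouse Dux and 26.5, 25.8 and 26.5 CPM in uninduced human DUX4 cultures, where it fell to 4.45, 3.89 and 2.68 CPM with induction. The myoblast markers did not all move as Myod1 did. Of the 5 tested, 3 were lower and 1 higher with human DUX4, the higher being Myf5, from 6.94, 7.12 and 6.87 to 9.11, 7.26 and 10.1 CPM. With mouse Dux 4 were lower and 1 higher, the higher being the filament gene Des, from 689.7, 732.2 and 731.7 to 988.4, 959.9 and 894.3 CPM. Myf5 is among those 4, and its call rests on very few counts, at no more than 0.34 CPM in that line. With luciferase 4 were lower and 1 was not called. Of the 6 myoblast markers, Msc was at most 0.346 CPM in every library, Pax7 at most 0.231 CPM outside the mouse Dux line, and Myf5 at most 0.34 CPM in the mouse Dux line, so the 3 clones did not share 1 myoblast profile. Of 10 markers of other cell types, 7 failed the filter on low counts. Of the 3 tested, the endothelial Cdh5 stood at 22.5 to 27.1 CPM in the luciferase line and at most 0.293 CPM elsewhere. Cd68 of macrophages stood at 19.4 to 22.6 CPM in induced human DUX4 cultures and at most 3.22 CPM elsewhere. Pparg of adipocytes, also called higher with human DUX4, stood at 3.52 to 31.9 CPM across the libraries. Ptprc of leukocytes was at most 0.225 CPM. The part of differentiation state or of other cell types in the changes of the replication genes was not tested.

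Some of these counts may hold reads of other genes. Exons of other genes covered more than 10% of the exonic bases of 8 of the 50, most of all in Fen1 (84.2%, Tmem258 and Gm10143) and Gins2 (67.3%, Gse1). The labels do not say whether the counting used strand, so values of these 8 and of Pcna and Tyms are less certain than those of the other genes.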

How the data were processed

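Polyadenylated RNA was sequenced from 18 cultures in 6 groups of 3, grouped by the labels. The deposited values are read counts per gene, whole numbers whose totals differ between libraries, and were taken as not normalized. The submitters' processing notes name TopHat2 2.0.12, Bowtie2 2.2.3, CASAVA and the build mm10. They name no counting program, and strand use in counting is not stated. Lane and pool of each library were not used here.

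Counts were scaled by TMM and filtered by filterByExpr (edgeR 4.0.16, R 4.3.3, limma 3.58.1). One model of 6 group means was fitted to 18 libraries with edgeR's quasi-likelihood F test, two-sided, with Benjamini-Hochberg adjustment over 13602 genes. The standard error is the log2 fold change divided by the square root of F. The biological coefficient of variation was 6.25%. The script was tested on simulated data. Groups share 1 estimate of the spread, so p-values of the more variable mouse Dux line may be too small. Alternatives were DESeq2 1.42.0, 2 other scalings, no filter, a replicate block, the groups compared alone and each replicate left out. Leaving out both mouse Dux libraries numbered 1 was chosen after seeing the data. Replicate numbers did not pair cultures in the human DUX4 and luciferase lines, while the mouse Dux libraries numbered 1 deviated alike. Positions came from GENCODE vM21 on GRCm38 (mm10).

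All 50 members could be named. Values in every library were given by rule: the most and least lowered member of each role by human DUX4, the 3 highest and lowest members in the other responses, and the 3 largest baseline differences; a few others were added after their values were seen. Genes outside the 50 were the 3 highest and 3 lowest called with human DUX4 on each list, with Cdkn1a, Rb1, Ccnd1 and Myc. Rfc1 and several muscle and cell type markers, among them Cdh5, Ptprc, Msc and Pax7, were named outside this rule. The members and lists were chosen with earlier results of these data known.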

Additional observations from a re-analysis of the deposited data

Results flagged for a closer look

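Results are listed here where a test of the difference between 2 lines' responses passed and the lines moved in opposite directions, or where such differences were counted over the 50 genes. All are log2 differences from edgeR's interaction contrasts. How many of all genes tested were called in opposite directions was not counted for any pair of lines, so these splits do not set the 50 apart.

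Mouse Dux against human DUX4 gave 49 genes with a higher response and 0 with a lower one. The 18 genes called higher with mouse Dux and lower with human DUX4 differed by 4.14 (Cdca7), 3.26 (Exo1), 3.21 (Orc1), 2.85 (Mcm3), 2.73 (Hells), 2.56 (Mcm10), 2.54 (Ccne2), 2.18 (Clspn), 2.02 (Cdc45), 1.96 (Dut), 1.95 (Fen1), 1.73 (Tipin), 1.71 (Ccne1), 1.60 (Cdt1), 1.56 (Slbp), 1.48 (Brca2), 0.84 (E2f1) and 0.70 (Tyms). The mouse Dux calls of Mcm10, Clspn, Brca2 and Cdc45 were lost when libraries of that line were left out, so their opposite directions are less certain. Those of Cdt1, Fen1, Dut and Tipin were lost with library size alone.

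Mouse Dux against luciferase gave 43 genes with a higher response and 0 with a lower one. The 14 genes called higher with mouse Dux and lower with luciferase differed by 3.72 (Exo1), 3.64 (Ccne2), 3.23 (Mcm10), 3.17 (Clspn), 2.59 (Mcm3), 2.12 (Ccne1), 2.07 (Orc1), 1.82 (Pcna), 1.65 (Cdc45), 1.38 (Hells), 1.16 (Slbp), 0.99 (Fen1), 0.79 (Tyms) and 0.75 (Tipin). Over all genes tested, 34.1% were called higher with mouse Dux and 16.4% lower with luciferase, and the share with both was not counted. Here too the mouse Dux calls of Mcm10, Clspn and Cdc45 were lost when libraries of that line were left out. Those of Fen1 and Tipin were lost with library size alone. Luciferase calls of Slbp and Tipin were lost when 1 luciferase library was left out.

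Human DUX4 against luciferase gave 8 genes with a higher and 30 with a lower response, and by DESeq2 7 and 28. Pcna was the gene called higher with human DUX4 and lower with luciferase, with a difference of 1.48.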

How the results depend on the processing

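The human DUX4 counts of 49 lower and 1 higher held under every alternative run. Scaling by library size alone gave 11 higher and 22 lower genes and a median of -0.17 in the mouse Dux response. Among genes called under either scaling, it turned the sign of Gmnn (-0.21), Mcm4 (-0.13), Rrm2 (-0.20) and Clspn (-0.010) there. It likewise turned that of Rpa1 (-0.092) in the difference from luciferase. It also moved the median of the mouse Dux response minus that of human DUX4 to 1.47, minus that of luciferase to 0.65, and the baseline medians to 1.30 (mouse Dux against luciferase), 2.15 (human DUX4 against luciferase) and -0.90 (mouse Dux against human DUX4). With only the groups compared, 5 genes were lower with mouse Dux, from fewer samples. Leaving out 1 library at a time gave baseline medians of 1.15 to 1.21, 2.10 to 2.15 and -0.98 to -0.93 in the same order, and 0 to 1 genes higher in the mouse Dux line than in the human DUX4 line, the 1 being Orc6. It gave 17 to 23 higher and 7 to 14 lower with mouse Dux.

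In the human DUX4 and luciferase lines, same-numbered cultures correlated at -0.03 to 0.03 in their deviations from the group means, so numbers do not pair them. In the mouse Dux line they correlated at 0.08 to 0.22. There both libraries numbered 1 correlated at 0.22 with each other and at -0.165 to -0.125 with libraries 2 and 3 of the other group. Libraries 2 and 3 correlated at 0.08 to 0.10 whether or not the numbers matched. The replicate block fits the same effect of a number in every line. It left the mouse Dux counts at 19 higher and 10 lower and the luciferase count at 44 lower, and changed no other call among the 50. Of the values of single genes under all alternatives, 6368 kept their call, and 53 gained and 124 lost a call with the sign unchanged. In 5 the sign changed and the value was called before or after the change of setting. Changes of sign in values not called under either setting are counted among the 6368. The cause was not tested. Depth limits low genes: the 3 induced luciferase libraries held 13 counts of Cdc6 and 17 of Exo1 in all.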
